A study of Homo sapiens with 9 samples.

Results

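The nuclear-encoded subunits of the respiratory chain and ATP synthase were followed complex by complex through knockdown of SIRT6 or KDM5C in a pancreatic carcinoma cell line. They numbered 88 of the 36753 genes in the deposited tables and were chosen by name. The rule used no measured value, but it was drawn up with earlier results of these data known. Members were protein-coding genes whose symbols begin with NDUFA, NDUFB, NDUFC, NDUFS or NDUFV, with SDHA to SDHD, the UQCR genes, CYC1, CYCS, the families COX4 to COX8, and ATP5. Of these, 38 belong to complex I, 4 to complex II, 10 to complex III, 15 to complex IV and 20 to complex V, and CYCS was counted apart as the mobile carrier. The same prefixes also took in 65 pseudogenes, 12 genes with symbols beginning NDUFAF (counted as assembly factors), NDUFA4 and NDUFA4L2, and 6 non-coding genes. The rule left all of these out. Members were found by symbol, and COX4I2 and COX8C were not analysed here.

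PANC-1 is an established human pancreatic carcinoma cell line. Cells of this line were transfected with control siRNA, with siRNA against SIRT6, a nuclear NAD-dependent deacylase of histones and other proteins, or with siRNA against KDM5C, a histone H3 lysine demethylase. RNA was taken after 48 hours, and each of the 3 groups (control, siSIRT6 and siKDM5C) has 3 libraries, so that line, transfection and time are common to all groups. The sources used here do not say how many siRNAs were used for each target, or whether the libraries of a group came from separate cultures. The p-values therefore measure the spread between these libraries, which may be technical.

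Complex I passes electrons from NADH to ubiquinone, complex II passes them from succinate to ubiquinone as part of the tricarboxylic acid (TCA) cycle, and complex III hands them to cytochrome c, which carries them to complex IV, where oxygen is reduced. Complexes I, III and IV pump protons, and complex V uses the gradient to make ATP. Complexes I, III, IV and V are each built from subunits of the nuclear and the mitochondrial genome, while all subunits of complex II are nuclear. In tumour cells this chain supplies ATP and also the oxidised NAD and aspartate that proliferation needs.

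Levels are given in FPKM, fragments scaled to gene length and to the reads of the library, and are listed in the order of replicates 1, 2 and 3. Fold changes are differences in log2(FPKM + 1), a scale that understates the change of low genes, and their adjusted p-values come from limma's moderated test over all 16135 genes that reached 1 FPKM in 3 or more libraries (Benjamini-Hochberg, two-sided, threshold 0.05). A gene is said to have risen or fallen only where it passed that threshold. Between 18199956 and 26908282 reads per library were recovered in genes. The targeted transcripts were low in the libraries labelled for them: SIRT6 read 6.20, 5.17 and 7.17 FPKM in the controls and 0.795, 0.509 and 0.487 in the siSIRT6 libraries, a log2 fold change of -2.16 (adjusted p = 2.92e-06), and KDM5C read 18.0, 18.4 and 18.8 in the controls and 3.65, 3.31 and 3.89 in the siKDM5C libraries, a change of -2.07 (adjusted p = 8e-08). Of 6 markers of carcinoma epithelium, 4 were at 1 FPKM or more in every library, while CDH1 stayed between 0.0862 and 0.630 FPKM. Of the fibroblast markers 1 of 6 passed that level in every library (COL1A1, 14.9 to 42.5 FPKM), of the leukocyte markers 1 of 4 (CD68, 34.0 to 91.2 FPKM), and of the 3 endothelial, 3 acinar and 1 islet markers none did.

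Of the 88 members, 83 passed the expression filter. In siSIRT6 against control, 9 of the 83 rose, 14 fell and 60 did not pass the test. That is 27.7% of the members called, beside 50.8% of all genes tested (23.9% rose, 26.9% fell). In siKDM5C against control, 11 rose, 12 fell and 60 did not pass, again 27.7%, beside 51.5% of all genes (25.6% rose, 25.9% fell). The median log2 fold change over members was -0.07 in siSIRT6 and 0.01 in siKDM5C, beside -0.05 and -0.02 over all genes, and the median size of the change regardless of sign was 0.16 and 0.18 beside 0.27 in each comparison over all genes. The median SE was 0.10 for members and 0.09 for all genes. Both comparisons use the same 3 control libraries, so their values are given side by side and are not independent. In bulk RNA, fewer cells of a kind and less RNA per cell cannot be told apart.

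**Figure D1:**
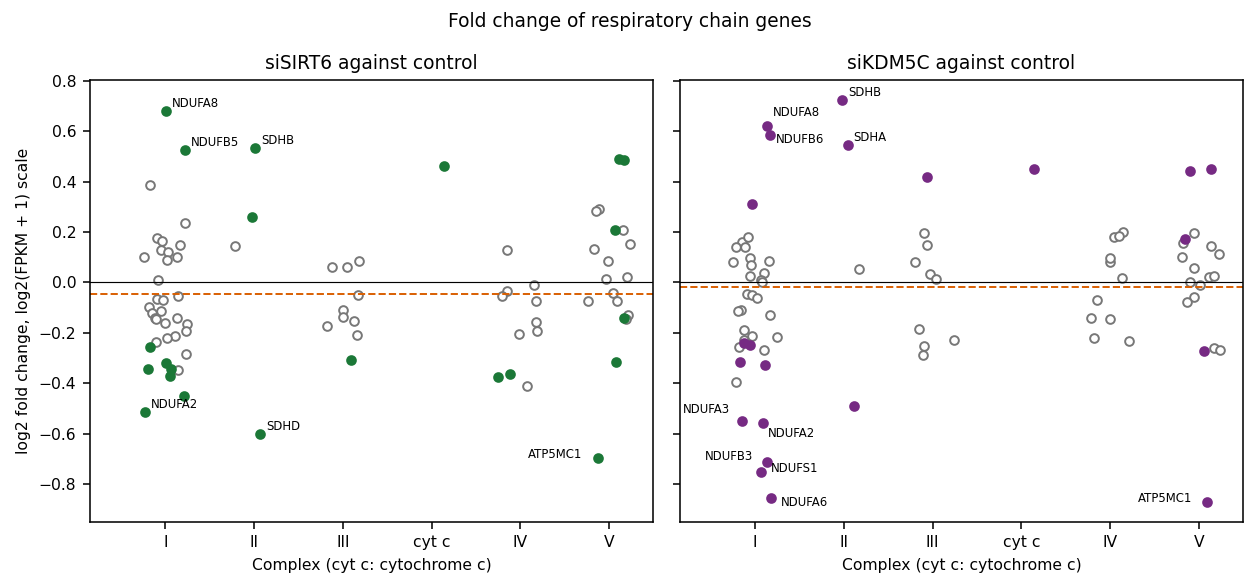
Log2 fold change (vertical axis, log2(FPKM + 1) scale) of 82 of the 83 tested members by complex (horizontal axis), in siSIRT6 (left) and siKDM5C (right) against control. Filled points passed the threshold, open points did not, the dashed line is the median of all genes tested, and names mark called members that changed by 0.5 or more; NDUFA8 is the highest point on the left and SDHB on the right, and ATP5MC1 is lowest in both.

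The core subunits of complex I carry the flavin and the iron-sulfur clusters and form the ubiquinone site. NDUFS1, the largest core subunit, which carries iron-sulfur clusters of the NADH-oxidising arm, changed in the siKDM5C libraries. It read 6.74, 6.38 and 5.92 FPKM in the control libraries, 5.69, 5.07 and 6.21 in the siSIRT6 libraries and 3.42, 3.44 and 3.23 in the siKDM5C libraries. The siKDM5C libraries lay far below every other library, while the siSIRT6 libraries overlapped the controls. The change was -0.75 (SE 0.07, adjusted p = 6.41e-05) in siKDM5C and -0.15 (adjusted p = 0.13) in siSIRT6, and siSIRT6 exceeded siKDM5C by 0.61 (adjusted p = 0.000352). NDUFS1 shared 11.7% of its exon bases with other annotated genes, and the sources used here do not say whether counting used strand.

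NDUFS3, a core subunit next to the ubiquinone-reducing module, read 6.96, 7.78 and 6.36 FPKM in the control libraries, 6.08, 7.02 and 7.09 in the siSIRT6 libraries and 8.52, 7.88 and 10.6 in the siKDM5C libraries. The siKDM5C libraries were the highest 3, and the siSIRT6 libraries overlapped the controls. Its rise in siKDM5C was small at 0.31 (SE 0.11, adjusted p = 0.0435) and was lost in 10 of the alternatives, with adjusted p-values of 0.0214 to 0.129; the libraries whose omission ended it were control 1 and 3, siSIRT6 2 and 3, and siKDM5C 1 and 3. The core subunits NDUFV1, NDUFV2, NDUFS7 and NDUFS8 did not pass in either comparison with control, with log2 fold changes between -0.17 and 0.18.

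The promoter of NDUFS1 is shown because its fall in siKDM5C was the only one among the core subunits described here in either comparison with control. The windows printed here are RefSeq promoters (GRCh38.p14) of 300 bases, from 250 before to 50 after the RefSeq start, 5′ to 3′ on the gene's strand. That start can differ from the gene positions printed here, which come from GENCODE 29. Capitals mark matches, on either strand, to 5 short motifs of factors known from respiratory gene promoters: NRF1 (GCGCA, any base, then GCGC), ETS and GABP (CCGGAAG), YY1 (AAGATGG), NF-Y (CCAAT) and SP1 (GGGCGG). Matches of different motifs could overlap, but none did in the windows printed. NDUFS1 (chr2:206159395-206159694, reverse strand) held 1 ETS and GABP match and 1 SP1 match.

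NDUFS1: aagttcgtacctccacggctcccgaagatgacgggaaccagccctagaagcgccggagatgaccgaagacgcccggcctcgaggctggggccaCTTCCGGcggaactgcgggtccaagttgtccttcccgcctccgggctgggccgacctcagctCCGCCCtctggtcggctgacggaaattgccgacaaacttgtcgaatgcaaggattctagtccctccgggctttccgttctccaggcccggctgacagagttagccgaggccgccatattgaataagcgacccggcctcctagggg

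The supernumerary subunits of complex I surround the core and are needed for its assembly and stability. Of 30 tested, 2 rose and 6 fell in siSIRT6, and 2 rose and 8 fell in siKDM5C. That is 26.7% and 33.3% called, beside 50.8% and 51.5% of all genes tested. NDUFA8, a subunit on the intermembrane-space side held by disulfide bonds, read 18.8, 16.8 and 22.5 FPKM in the control libraries, 31.2, 31.3 and 31.7 in the siSIRT6 libraries and 34.5, 26.2 and 30.2 in the siKDM5C libraries. All knockdown libraries lay above all controls, and the siKDM5C libraries were the most scattered. Means were 19.4 ± 2.92 (SD, n = 3), 31.4 ± 0.231 and 30.3 ± 4.15 FPKM, and the changes were 0.68 (SE 0.12, adjusted p = 0.00156) in siSIRT6 and 0.62 (SE 0.12, adjusted p = 0.00249) in siKDM5C.

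NDUFB5, a subunit of the membrane arm, read 5.12, 5.62 and 5.51 FPKM in the control libraries, 8.26, 8.07 and 8.37 in the siSIRT6 libraries and 7.15, 5.88 and 5.54 in the siKDM5C libraries. Only the siSIRT6 libraries stood clear of the controls, with a change of 0.53 (SE 0.08, adjusted p = 0.000839), while siKDM5C overlapped them at 0.16 (adjusted p = 0.134). The difference between the knockdowns was 0.37 (adjusted p = 0.00752). NDUFB6, another membrane-arm subunit, read 14.6, 13.8 and 18.4 FPKM in the control libraries, 21.2, 19.5 and 20.9 in the siSIRT6 libraries and 32.6, 19.3 and 21.1 in the siKDM5C libraries. Every knockdown library lay above every control, but siKDM5C 1 stood well above the rest. The change passed in siKDM5C at 0.58 (SE 0.18, adjusted p = 0.0251) and not in siSIRT6 at 0.39 (adjusted p = 0.105). The siKDM5C call was lost in 4 of the alternatives, among them the omission of control 1 or control 2 (adjusted p 0.0103 to 0.0812 over all alternatives).

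Among the supernumerary subunits falls outnumbered rises, with 6 and 8 of 30 falling, beside 26.9% and 25.9% of all genes tested. NDUFA2, a thioredoxin-like subunit of the NADH-oxidising arm, read 24.0, 23.6 and 30.4 FPKM in the control libraries, 18.0, 16.6 and 18.8 in the siSIRT6 libraries and 20.6, 13.3 and 18.7 in the siKDM5C libraries. The control libraries were the highest 3, and control 3 stood above the other two. The change was -0.51 (SE 0.16, adjusted p = 0.0227) in siSIRT6 and -0.56 (SE 0.16, adjusted p = 0.0159) in siKDM5C. Without control 3 the siSIRT6 change was -0.40 (adjusted p = 0.0738) and the siKDM5C change -0.45 (adjusted p = 0.0515). The siSIRT6 call was also lost without siSIRT6 1 or 2 (adjusted p 0.00399 to 0.0738 over all alternatives, and 0.00338 to 0.0515 in siKDM5C).

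NDUFB3, a small membrane-arm subunit, read 20.5, 19.2 and 21.8 FPKM in the control libraries, 15.8, 15.6 and 16.3 in the siSIRT6 libraries and 15.1, 10.1 and 11.7 in the siKDM5C libraries. Both knockdown groups lay below all controls, and siKDM5C lay below siSIRT6. The change was -0.71 (SE 0.12, adjusted p = 0.00136) in siKDM5C and -0.35 (SE 0.12, adjusted p = 0.0406) in siSIRT6. The siSIRT6 call was lost in 9 of the alternatives, among them the omission of any 1 control or siSIRT6 library or of siKDM5C 3 (adjusted p 0.00216 to 0.112). The siKDM5C call held in all 18.

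NDUFS5, a disulfide-bonded subunit on the intermembrane-space side, had the highest level of complex I and read 243, 240.2 and 295 FPKM in the control libraries, 184, 192 and 189 in the siSIRT6 libraries and 263, 186 and 224 in the siKDM5C libraries. The siSIRT6 libraries lay below all controls, and the siKDM5C libraries overlapped both groups. Its change was -0.45 (SE 0.13, adjusted p = 0.0159) in siSIRT6 and -0.21 (adjusted p = 0.185) in siKDM5C, and without control 3 the siSIRT6 change was -0.36 (adjusted p = 0.051, and 0.00445 to 0.051 over the alternatives). NDUFB9, a subunit of the LYR-motif family that binds the acyl carrier protein, read 8.09, 7.41 and 8.70 FPKM in the control libraries, 5.92, 5.99 and 6.08 in the siSIRT6 libraries and 9.10, 7.03 and 8.65 in the siKDM5C libraries. Only siSIRT6 lay below the controls, at -0.37 (SE 0.09, adjusted p = 0.0084), beside 0.03 (adjusted p = 0.827) in siKDM5C. The other siSIRT6 falls in complex I were NDUFA9 at -0.26, NDUFC2 at -0.32 and the readthrough gene NDUFC2-KCTD14 at -0.35, which shares most of its exons with NDUFC2 and so is not a separate observation.

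NDUFA6, the other LYR-motif subunit, had the lowest level of complex I and the largest fall of siKDM5C within it. It read 3.07, 1.33 and 1.44 FPKM in the control libraries, 1.97, 0.963 and 1.94 in the siSIRT6 libraries and 0.429, 0.764 and 0.544 in the siKDM5C libraries. All 3 siKDM5C libraries lay below every other library, and control 1 stood far above the other controls. The change was -0.86 (SE 0.24, adjusted p = 0.0159) in siKDM5C and -0.14 (adjusted p = 0.642) in siSIRT6. Only 11 to 75 reads per library stood behind these values, so the precision is low. The remaining siKDM5C falls were NDUFA3 at -0.55, NDUFB4 at -0.33, NDUFA7 at -0.32, NDUFA11 at -0.25 and NDUFA9 at -0.24. In complex I as a whole, 3 rose and 7 fell of 38 in siSIRT6 (median -0.12, 26.3% called beside 50.8% of all genes tested). In siKDM5C 4 rose and 9 fell (median -0.09, 34.2% called beside 51.5%). With the trend on GC content and length removed the counts were 4 and 12 in siSIRT6 and 6 and 14 in siKDM5C. That setting called 9047 and 8906 of all 15920 genes.

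**Figure D2:**
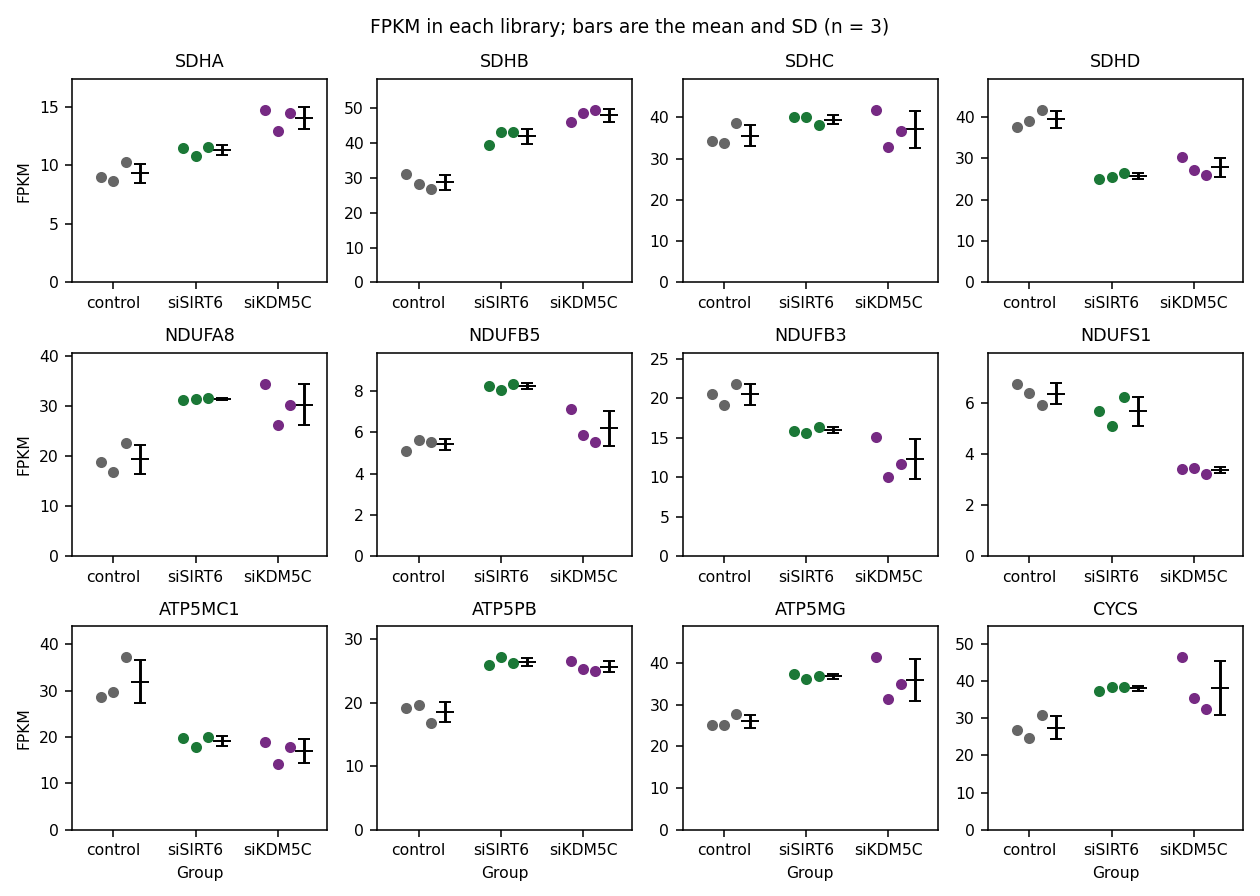
FPKM (vertical axis, from 0) in each library for 12 members, with the 3 libraries of the control, siSIRT6 and siKDM5C groups as points and the mean and SD (n = 3) as bars. SDHD, NDUFB3 and ATP5MC1 lie below the controls in both knockdowns, NDUFS1 does so in siKDM5C, and SDHA, SDHB, NDUFA8, ATP5PB, ATP5MG and CYCS lie above them in both.

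Complex II had calls in both directions, for 3 of its 4 genes in each comparison (75.0%, beside 50.8% and 51.5% of all genes). Its 2 catalytic subunits rose in each knockdown, 1 of its 2 membrane anchors fell in each, and the other anchor did not pass in either. SDHB (ENSG00000117118, chr1:17018722-17054170 on the reverse strand, GRCh38), the iron-sulfur subunit that conducts electrons towards ubiquinone, read 31.1, 28.1 and 26.9 FPKM in the control libraries, 39.5, 43.1 and 43.1 in the siSIRT6 libraries and 45.9, 48.5 and 49.5 in the siKDM5C libraries. All knockdown libraries lay above all controls, and siKDM5C lay above siSIRT6. The means were 28.7 ± 2.19, 41.9 ± 2.10 and 47.9 ± 1.85 FPKM, and the changes 0.53 (SE 0.07, adjusted p = 0.000269) in siSIRT6 and 0.72 (SE 0.07, adjusted p = 4.88e-05) in siKDM5C.

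SDHA (ENSG00000073578, chr5:218241-256700 on the forward strand), the flavoprotein that oxidises succinate, read 9.03, 8.71 and 10.3 FPKM in the control libraries, 11.5, 10.8 and 11.6 in the siSIRT6 libraries and 14.8, 13.0 and 14.5 in the siKDM5C libraries. The groups did not overlap and ran from control through siSIRT6 to siKDM5C. Means were 9.33 ± 0.817, 11.3 ± 0.424 and 14.1 ± 0.954 FPKM. The rise was 0.54 (SE 0.07, adjusted p = 0.000363) in siKDM5C and 0.26 (SE 0.07, adjusted p = 0.0167) in siSIRT6. The siSIRT6 call was lost in 5 of the alternatives: without control 1, control 2, siSIRT6 1 or siSIRT6 3, and with the trend on GC content and length removed (adjusted p 0.00684 to 0.0642).

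SDHD (ENSG00000204370, chr11:112086773-112120013 on the forward strand), a heme-binding anchor in the inner membrane, went the other way and read 37.6, 39.1 and 41.7 FPKM in the control libraries, 25.0, 25.4 and 26.4 in the siSIRT6 libraries and 30.4, 27.2 and 25.8 in the siKDM5C libraries. Every knockdown library lay below every control. Means were 39.5 ± 2.05, 25.6 ± 0.699 and 27.8 ± 2.33 FPKM, and the changes -0.60 (SE 0.07, adjusted p = 0.000145) in siSIRT6 and -0.49 (SE 0.07, adjusted p = 0.000448) in siKDM5C. SDHC, its partner anchor, read 34.4, 33.9 and 38.6 FPKM in the control libraries, 40.1, 40.0 and 38.2 in the siSIRT6 libraries and 41.8, 32.9 and 36.6 in the siKDM5C libraries. Its 3 groups overlapped, with changes of 0.15 (SE 0.09, adjusted p = 0.195) in siSIRT6 and 0.05 (SE 0.09, adjusted p = 0.634) in siKDM5C. The calls for SDHB and SDHD, and for SDHA in siKDM5C, held in all 18 alternatives. SDHD shared 12.2% of its exon bases with other annotated genes, and SDHA and SDHB shared none.

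The promoters of the 3 complex II genes that passed are shown because SDHA and SDHB moved opposite to SDHD. SDHA (chr5:218070-218369, forward strand) held 4 NRF1 matches. SDHB (chr1:17053983-17054282, reverse strand) held 1 ETS and GABP match, 1 YY1 match and 1 SP1 match. SDHD (chr11:112086623-112086922, forward strand) held 1 NRF1 match and 1 ETS and GABP match. The windows thus hold different sets of motifs, and the matches describe letters only, not binding.

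SDHA: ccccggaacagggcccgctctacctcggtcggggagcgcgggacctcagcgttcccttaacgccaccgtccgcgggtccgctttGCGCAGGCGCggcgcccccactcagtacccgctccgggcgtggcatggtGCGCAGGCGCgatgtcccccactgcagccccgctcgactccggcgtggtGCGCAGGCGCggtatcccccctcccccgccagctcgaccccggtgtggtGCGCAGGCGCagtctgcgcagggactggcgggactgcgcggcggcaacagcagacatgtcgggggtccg

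SDHB: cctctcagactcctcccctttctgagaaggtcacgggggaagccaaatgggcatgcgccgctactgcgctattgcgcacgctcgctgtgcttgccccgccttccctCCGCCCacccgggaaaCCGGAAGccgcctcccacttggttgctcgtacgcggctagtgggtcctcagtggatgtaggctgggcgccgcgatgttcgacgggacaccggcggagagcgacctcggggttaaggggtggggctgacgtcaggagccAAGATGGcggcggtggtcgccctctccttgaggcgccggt

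SDHD: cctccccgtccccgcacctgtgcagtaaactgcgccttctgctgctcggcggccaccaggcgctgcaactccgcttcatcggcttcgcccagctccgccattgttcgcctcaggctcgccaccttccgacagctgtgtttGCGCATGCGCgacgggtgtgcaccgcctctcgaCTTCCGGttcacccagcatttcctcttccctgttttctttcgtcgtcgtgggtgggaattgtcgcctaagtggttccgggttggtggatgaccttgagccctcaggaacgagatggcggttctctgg

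Complex III had 1 call in each comparison. Of its 10 members, 1 fell in siSIRT6 and 1 rose in siKDM5C, with medians of -0.12 and 0.02. That is 10.0% called in each, beside 50.8% and 51.5% of all genes tested. CYC1, the heme-bearing cytochrome c1 that passes electrons to cytochrome c, read 63.9, 60.5 and 69.4 FPKM in the control libraries, 51.5, 51.0 and 53.3 in the siSIRT6 libraries and 57.9, 47.3 and 60.4 in the siKDM5C libraries. Both knockdown groups lay below all controls, and the fall passed in siSIRT6 at -0.31 (SE 0.09, adjusted p = 0.022) and not in siKDM5C at -0.23 (adjusted p = 0.0661). The siSIRT6 call was lost without control 1, control 3, siSIRT6 1 or siSIRT6 2 (adjusted p 0.000504 to 0.071), and CYC1 also fell in siKDM5C in 5 alternatives, among them without siKDM5C 3 (adjusted p 0.00162 to 0.182). UQCRC1, a core protein facing the matrix, read 37.9, 35.5 and 32.7 FPKM in the control libraries, 38.2, 35.3 and 39.0 in the siSIRT6 libraries and 44.3, 43.5 and 55.5 in the siKDM5C libraries. The siKDM5C libraries were the highest 3 and rose by 0.42 (SE 0.10, adjusted p = 0.00768), a call that held in all alternatives, while siSIRT6 overlapped the controls at 0.08 (adjusted p = 0.508).

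UQCRH, the hinge subunit beside cytochrome c1, had the highest level of complex III and read 108, 109 and 122 FPKM in the control libraries, 98.5, 95.8 and 98.0 in the siSIRT6 libraries and 135, 93.7 and 117 in the siKDM5C libraries. The siSIRT6 libraries lay below the controls without passing, at -0.21 (adjusted p = 0.171), and siKDM5C overlapped both at 0.02 (adjusted p = 0.926). Its retrogene UQCRHL was the lowest tested member of the complex at 4.31, 3.65 and 5.07 FPKM and did not pass, and reads of such near-identical copies can be split by counting. The Rieske iron-sulfur subunit UQCRFS1 changed by -0.05 and 0.08, neither past the threshold. With the trend on GC content and length removed, 4 members of complex III fell in siKDM5C in place of none.

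CYCS, cytochrome c itself, the mobile carrier between complexes III and IV and a trigger of apoptosis when released, read 26.9, 24.5 and 30.7 FPKM in the control libraries, 37.2, 38.4 and 38.3 in the siSIRT6 libraries and 46.3, 35.4 and 32.5 in the siKDM5C libraries. All knockdown libraries lay above all controls, and siKDM5C 1 was the highest. The means were 27.4 ± 3.10, 38.0 ± 0.649 and 38.1 ± 7.28 FPKM, with changes of 0.46 (SE 0.13, adjusted p = 0.0149) in siSIRT6 and 0.45 (SE 0.13, adjusted p = 0.0166) in siKDM5C. Without control 2, the lowest control, these were 0.39 (adjusted p = 0.0543) and 0.38 (adjusted p = 0.0603). Over all alternatives the adjusted p-values ran from 0.00255 to 0.0543 in siSIRT6 and from 0.00493 to 0.0603 in siKDM5C.

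Complex IV was lower in siSIRT6 for 10 of its 11 tested members, beside 8809 of all 16135 genes tested. Only 2 of the 11 fell past the threshold, 18.2% called beside 50.8% of all genes. In siKDM5C none rose or fell, beside 51.5% of all genes called. By limma-trend 0 of 11 passed in siKDM5C, 1 of 11 (COX7B) had an unadjusted p under 0.05, and limma-voom on recovered reads called that 1 gene. Rescaling by median-of-ratios called 1 member and removing the trend on GC content and length called 2. Under the last 2 alternatives 9 of 11 rather than 10 were lower in siSIRT6. COX5A, a matrix-side subunit that binds a thyroid hormone metabolite, read 62.1, 58.6 and 53.7 FPKM in the control libraries, 43.2, 44.1 and 47.6 in the siSIRT6 libraries and 52.9, 51.6 and 61.6 in the siKDM5C libraries. The siSIRT6 libraries lay below all controls at -0.36 (SE 0.08, adjusted p = 0.00657), a call that held in all alternatives, and siKDM5C overlapped the controls at -0.07 (adjusted p = 0.503). COX7A2L, which ties complexes III and IV into supercomplexes, read 30.9, 30.9 and 35.6 FPKM in the control libraries, 23.3, 25.2 and 25.9 in the siSIRT6 libraries and 32.7, 25.7 and 25.2 in the siKDM5C libraries. Its siSIRT6 libraries were also below all controls, at -0.37 (SE 0.10, adjusted p = 0.0159), a call lost without control 3 or siSIRT6 1 (adjusted p 0.00351 to 0.0576).

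COX6A1, a subunit near the dimer interface, read 83.7, 81.6 and 118 FPKM in the control libraries, 66.1, 70.6 and 72.4 in the siSIRT6 libraries and 122, 80.4 and 100.2 in the siKDM5C libraries. The siSIRT6 libraries were the lowest 3, and the change of -0.41 (adjusted p = 0.0746) did not pass. It passed in 5 alternatives, among them without siKDM5C 1 or 2 (adjusted p 0.0356 to 0.219). COX8A, a small transmembrane subunit, had the highest level of the complex at 204, 176 and 217 FPKM in the 3 groups, and COX7B the lowest at 21.1, 23.1 and 24.3. Neither passed. COX4I1, which holds an ATP-sensitive regulatory site, changed by -0.04 and 0.18 without passing.

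Several complex IV subunits come in isoforms. For the COX6A, COX6B and COX7B pairs the broadly expressed one carried nearly all of the signal, while COX7A2 took 56.1% to 63.8% and COX7A2L 35.9% to 43.8% of the summed FPKM of COX7A1, COX7A2 and COX7A2L. The isoforms known from muscle, heart or testis were below the filter: COX6A2 reached at most 0.343 FPKM, COX7A1 0.537 and COX7B2 0.0634, the last on 0 to 1 read per library. COX6B2, the testis isoform of the subunit that clamps the dimer, read 0.842, 0.677 and 0.807 FPKM in the control libraries, 0.465, 0.223 and 0.250 in the siSIRT6 libraries and 0.704, 0.741 and 0.751 in the siKDM5C libraries. The siSIRT6 libraries were the lowest 3, and the gene was not tested. COX6B1 took between 98.9% and 99.7% of the pair's summed FPKM in every library. The 1 untested member outside complex IV was ATP5MGL, at no more than 0.127 FPKM.

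Complex V had calls in both directions. Of 19 tested members, 3 rose and 3 fell in siSIRT6 (median 0.02), and 3 rose and 2 fell in siKDM5C (median 0.03). That is 31.6% and 26.3% called, beside 50.8% and 51.5% of all genes tested. With the trend on GC content and length removed, 2 rose and 1 fell in siKDM5C. In the F1 head and central stalk, where ATP is made, 0 of 5 passed in siSIRT6 by limma-trend, 0 had an unadjusted p under 0.05 and 0 were called by limma-voom. In siKDM5C 1 rose, the alpha subunit ATP5F1A at 0.17 (adjusted p = 0.0411), with libraries that overlapped the controls. The catalytic beta subunit ATP5F1B had the highest level of all members and read 340.4, 334 and 332 FPKM in the control libraries, 302, 303 and 313 in the siSIRT6 libraries and 346, 317 and 363 in the siKDM5C libraries. Its siSIRT6 libraries lay below the controls without passing, at -0.13 (SE 0.06, adjusted p = 0.091), and siKDM5C spanned them at 0.03 (SE 0.06, adjusted p = 0.742). The siSIRT6 change of ATP5F1B did pass in 4 alternatives, among them without siKDM5C 2 or 3 (adjusted p 0.0158 to 0.213).

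The c subunits form the rotating ring in the membrane and are made from ATP5MC1, ATP5MC2 and ATP5MC3, which encode the same mature protein behind different import sequences. ATP5MC1 (ENSG00000159199, chr17:48892765-48895871 on the forward strand) showed the largest fall of any tested member on the log2(FPKM + 1) scale in each knockdown and read 28.7, 29.8 and 37.2 FPKM in the control libraries, 19.8, 17.9 and 19.9 in the siSIRT6 libraries and 19.0, 14.1 and 17.9 in the siKDM5C libraries. All knockdown libraries lay below all controls. Means were 31.9 ± 4.62, 19.2 ± 1.14 and 17.0 ± 2.58 FPKM, and the changes -0.70 (SE 0.13, adjusted p = 0.00193) in siSIRT6 and -0.87 (SE 0.13, adjusted p = 0.000575) in siKDM5C, calls that held in all 18 alternatives. As a percentage of the control mean it stood at 60.1% in siSIRT6 and 53.3% in siKDM5C, where NDUFA6 at 29.8% and NDUFS1 at 53.0% were lower. ATP5MC2 changed by 0.21 (adjusted p = 0.0741) and 0.11 (adjusted p = 0.305), and ATP5MC3 by -0.07 (adjusted p = 0.616) and -0.06 (adjusted p = 0.693).

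Because the 3 genes supply 1 protein, their shares of the summed c subunit FPKM were compared. ATP5MC1 took 37.1%, 40.5% and 44.3% in the controls, 29.5%, 28.0% and 29.0% in siSIRT6 and 27.7%, 25.8% and 26.5% in siKDM5C. Its mean share was thus 11.8 percentage points lower in siSIRT6 and 14.0 points lower in siKDM5C than the control mean of 40.6% ± 3.60. ATP5MC3 held the largest share in both knockdowns, at 43.7% ± 0.747 and 46.4% ± 2.50, beside 39.2% ± 0.623 in the controls. ATP5MC2 held 20.2% ± 3.18, 27.5% ± 1.46 and 27.0% ± 3.45. The exact permutation test of the ATP5MC1 share gave p = 0.1 in each comparison, the smallest that 3 libraries against 3 allow, so this test cannot reach 0.05 for a single share.

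The promoter of ATP5MC1 is shown for the same reason. ATP5MC1 (chr17:48892537-48892836, forward strand) held 4 NF-Y matches and none of the other motifs.

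ATP5MC1: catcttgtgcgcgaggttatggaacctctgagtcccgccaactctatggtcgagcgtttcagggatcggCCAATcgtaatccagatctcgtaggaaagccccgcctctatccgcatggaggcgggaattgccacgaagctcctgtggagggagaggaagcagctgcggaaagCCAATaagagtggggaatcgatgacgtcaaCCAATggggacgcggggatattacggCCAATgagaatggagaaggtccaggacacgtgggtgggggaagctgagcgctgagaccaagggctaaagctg

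The peripheral stalk holds the head still against the rotor. Of its 4 subunits, 2 rose and 1 fell in siSIRT6, and 1 rose in siKDM5C (75.0% and 25.0% called, beside 50.8% and 51.5% of all genes). ATP5PB, the long b subunit that spans the stalk, read 19.2, 19.7 and 16.8 FPKM in the control libraries, 25.8, 27.1 and 26.2 in the siSIRT6 libraries and 26.6, 25.4 and 25.0 in the siKDM5C libraries. Every knockdown library lay above every control, with changes of 0.49 (SE 0.06, adjusted p = 0.000365) in siSIRT6 and 0.45 (SE 0.06, adjusted p = 0.000576) in siKDM5C. ATP5MG, the membrane subunit g that helps ATP synthase dimerise, read 25.2, 25.1 and 27.9 FPKM in the control libraries, 37.3, 36.2 and 36.9 in the siSIRT6 libraries and 41.4, 31.4 and 35.1 in the siKDM5C libraries. It too stood above the controls in all 6 knockdown libraries, at 0.49 (SE 0.09, adjusted p = 0.00265) and 0.44 (SE 0.09, adjusted p = 0.00419). These calls held in all 18 alternatives.

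Smaller changes in complex V did not hold as widely. ATP5PF, coupling factor 6 of the stalk, rose by 0.21 (adjusted p = 0.0262) in siSIRT6, and ATP5PO, which joins stalk and head, fell with a change of -0.14 (adjusted p = 0.0479). The ATP5PF call was lost without control 1, control 2, siSIRT6 1 or siSIRT6 3 (adjusted p 0.0117 to 0.0918), and that of ATP5PO in 11 alternatives, among them the omission of any 1 control or siSIRT6 library (adjusted p 0.014 to 0.137). ATP5MJ, a small membrane proteolipid, fell in siSIRT6 at -0.32 (adjusted p = 0.0211) and in siKDM5C at -0.27 (adjusted p = 0.0396). These calls were lost in 4 and 11 alternatives, in each case also without control 1 or control 3 (adjusted p 0.0105 to 0.0707 and 0.0175 to 0.122). ATP5IF1, the inhibitor that stops the enzyme running backwards, was the lowest member of complex V and read 3.43, 0.589 and 0.241 FPKM in the control libraries, 1.90, 1.33 and 1.34 in the siSIRT6 libraries and 2.80, 0.559 and 0.444 in the siKDM5C libraries. The first library of the control and siKDM5C groups stood far above the others on 10 to 139 reads, and no change passed.

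**Figure D3:**
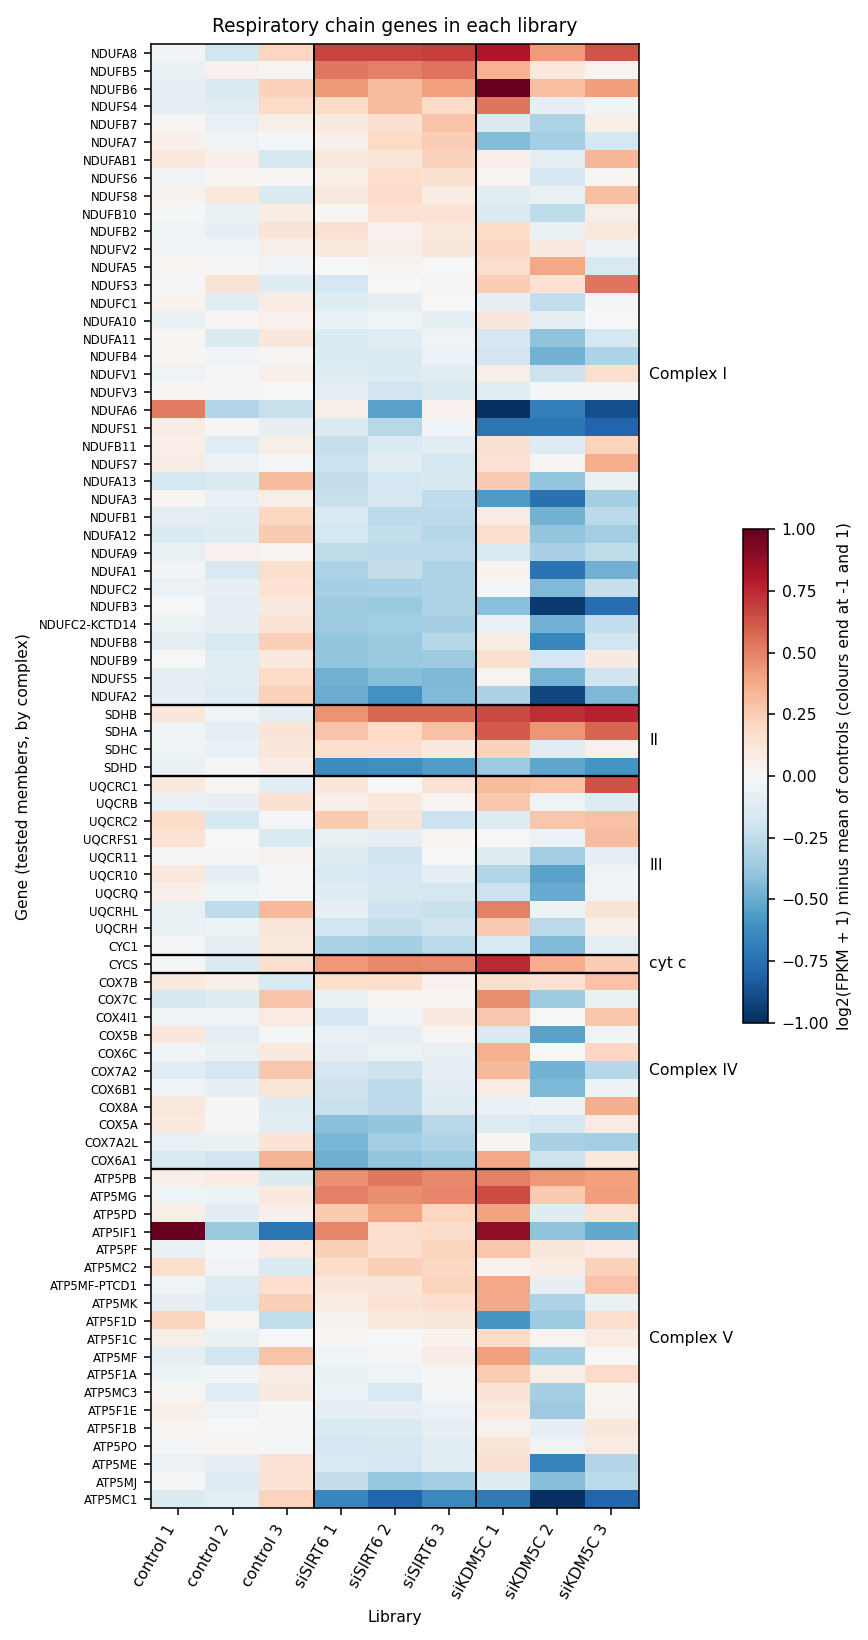
The tested members drawn (82 rows, grouped by complex) in each of the 9 libraries (columns), coloured by log2(FPKM + 1) minus the mean of the 3 controls, with colours ending at -1 and 1. The siSIRT6 columns resemble one another closely, the siKDM5C columns are less even, with siKDM5C 2 the palest or bluest for most genes, and SDHD and ATP5MC1 are blue in all 6 knockdown columns.

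The knockdowns were also compared with each other, without the controls. Of the 83 members, 8 were higher and 10 lower in siSIRT6 than in siKDM5C, 21.7% beside 39.9% of all genes (18.6% higher, 21.3% lower). The counts were 4 higher and 3 lower without siSIRT6 1, 4 and 2 without siSIRT6 2, 4 and 5 without siSIRT6 3, 6 and 6 without siKDM5C 1, and 4 and 18 without siKDM5C 2. All 8 that were higher were complex I genes. The largest differences were NDUFA6 at 0.71 (adjusted p = 0.0421), NDUFS1 at 0.61 (adjusted p = 0.000352), NDUFA7 at 0.48 (adjusted p = 0.00166), NDUFB5 at 0.37 (adjusted p = 0.00752) and NDUFB3 at 0.37 (adjusted p = 0.0398). NDUFA7 read 9.71, 9.12 and 9.20 FPKM in the control libraries, 9.71, 10.9 and 11.3 in the siSIRT6 libraries and 6.66, 7.18 and 8.15 in the siKDM5C libraries. Its siSIRT6 libraries lay above or level with the controls, at 0.17 (adjusted p = 0.109), which did not pass, and its siKDM5C libraries lay below them, at -0.32 (adjusted p = 0.00945).

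The members lower in siSIRT6 than in siKDM5C were spread over all 5 complexes, with COX6A1 at -0.51 (adjusted p = 0.0442), NDUFB9 at -0.40 (adjusted p = 0.00822), NDUFS3 at -0.36 (adjusted p = 0.0291), NDUFS7 at -0.34 (adjusted p = 0.0126) and UQCRC1 at -0.33 (adjusted p = 0.0268) in the lead. NDUFS7, which carries the last iron-sulfur cluster before ubiquinone, read 4.57, 4.07 and 4.23 FPKM in the control libraries, 3.57, 3.90 and 3.68 in the siSIRT6 libraries and 4.85, 4.39 and 5.79 in the siKDM5C libraries. The siSIRT6 libraries were the lowest 3, and the siKDM5C libraries were the highest, except that control 1 lay above siKDM5C 2. SDHA and COX5A were also lower, at -0.29 (adjusted p = 0.0135) and -0.29 (adjusted p = 0.0228). Of these 18 calls, 3 of the 8 higher (NDUFA7, NDUFB5 and NDUFS1) and 2 of the 10 lower (NDUFB9 and NDUFS7) held in every alternative in which they were tested, which was 17 of the 18 for NDUFS7. NDUFS7 shared 49.1% of its exon bases with other annotated genes, NDUFA7 33.5%, NDUFB9 21.0% and NDUFS1 11.7%, while NDUFB5 shared none. The other 13 calls were each lost when 1 library or another was left out. Among the higher genes these were NDUFA6 (siSIRT6 1 or 3, or any siKDM5C library, adjusted p 0.0143 to 0.126), NDUFB3 (control 1 or 2, any siSIRT6 library, or siKDM5C 2 or 3, 0.00244 to 0.105), NDUFB4 (any control or siSIRT6 library, or siKDM5C 2 or 3, 0.0127 to 0.128), NDUFB7 (control 1, siSIRT6 2 or 3, or siKDM5C 1 or 2, 0.00138 to 0.12) and NDUFA3 (siSIRT6 1 or 2, or siKDM5C 1, 0.00157 to 0.0711). Among the lower genes they were COX6A1 (control 1, any siSIRT6 library, or siKDM5C 1 or 3, 0.0142 to 0.131), COX6C (control 1 or 2, any siSIRT6 library, or siKDM5C 1 or 3, 0.00436 to 0.126), NDUFS3 (any siSIRT6 library or siKDM5C 3, 0.0114 to 0.0997), UQCRC1 (any siSIRT6 library, 0.0099 to 0.0934), COX5A (siSIRT6 1 or 2, or siKDM5C 3, 0.0115 to 0.0787), ATP5F1A (any siSIRT6 library or siKDM5C 1, 0.00637 to 0.0767), ATP5PO (siSIRT6 1 or 2, or siKDM5C 1, 0.00374 to 0.0611) and SDHA (siSIRT6 2, 0.00485 to 0.055).

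Summed over its members, complex I stood at 89.7% of its control level in siSIRT6 and 90.7% in siKDM5C. Complex II stood at 104.6% and 112.3%, complex III at 90.1% and 99.0%, complex IV at 86.8% and 101.0%, and complex V at 98.4% and 102.1%. The control sums were 1406 ± 110.2 FPKM for complex I, 113.1 ± 3.89 for complex II, 357 ± 12.2 for complex III, 707 ± 33.6 for complex IV and 793 ± 25.7 for complex V. These sums follow their most abundant members, which gave 17.1% of complex I (NDUFS5), 33.1% of complex II (SDHB), 31.6% of complex III (UQCRH), 29.3% of complex IV (COX8A) and 41.3% of complex V (ATP5F1B). Without SDHB the sum of complex II was below the control level in each knockdown, at 90.5% in siSIRT6 and 93.6% in siKDM5C, so its sum above the control level came from SDHB. Summed over all genes, FPKM was also lower in the knockdowns. It was 448575, 451270 and 473190 in the control libraries, 417335, 423521 and 417355 in the siSIRT6 libraries and 421332, 415892 and 415910 in siKDM5C. Sums were not tested, being descriptions of each library.

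**Figure D4:**
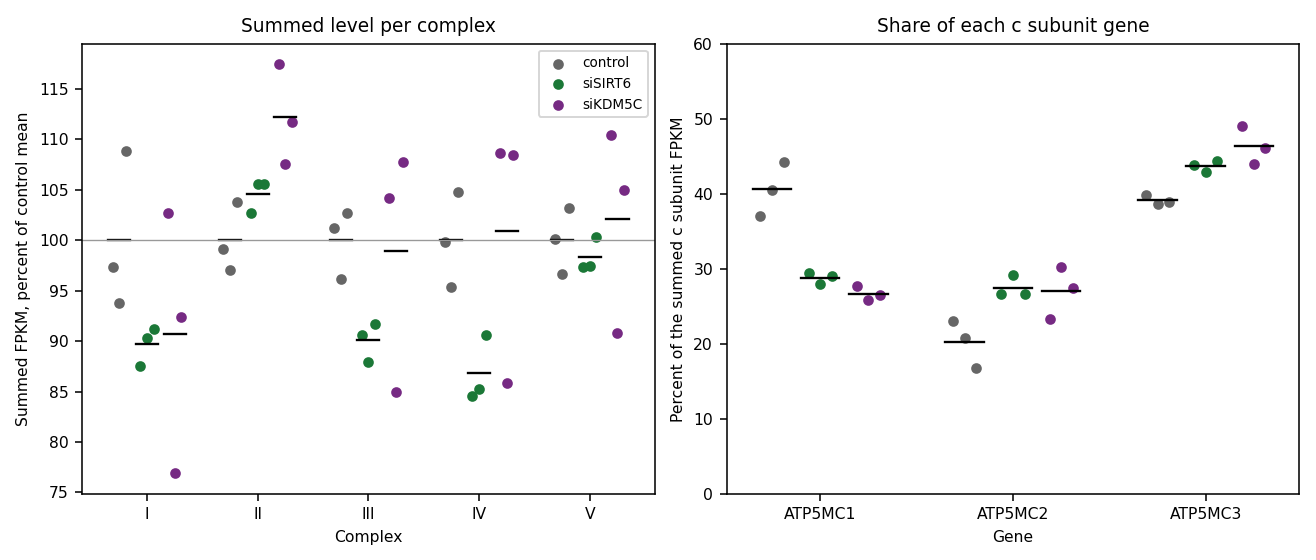
Left, summed FPKM of each complex in each library (points) as a percentage of the control mean, with group means as bars and the axis starting above 0; right, the share of each c subunit gene in their summed FPKM. In the left panel the siSIRT6 points of complexes I, III and IV lie below the controls and siKDM5C 2 is the lowest siKDM5C point for every complex, and in the right panel ATP5MC1 falls from 40.6% in control to 28.8% and 26.6%.

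Single libraries moved many members together. Within its group, siKDM5C 2 was the lowest library for 63 of the 83 members, beside 36.0% of all genes, and siKDM5C 1 the highest for 52, beside 24.9%. Control 3 was the highest control for 51 members, beside 31.5% of all genes, and control 2 the lowest for 50, beside 26.9%. The median SD over replicates on the log2 scale was 0.20 for members in siKDM5C, beside 0.13 for all genes, but 0.05 beside 0.06 in siSIRT6. Accordingly, the libraries of the 2 groups did not overlap for 49 members in siSIRT6 against control, 25 in siKDM5C against control and 24 in siSIRT6 against siKDM5C, beside 65.5%, 55.7% and 51.7% of all genes.

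The counts of members called depended on these libraries. In siKDM5C, 9 rose and 21 fell without siKDM5C 1, 17 rose and 10 fell without siKDM5C 2, and 12 rose and 18 fell without siKDM5C 3, beside 11 and 12 with all libraries. In siSIRT6, 9 rose and 5 fell without control 3 and 7 rose and 7 fell without siSIRT6 1, beside 9 and 14. Of the genes reported here, those that kept their call in all 18 alternatives were ATP5MG, ATP5PB, NDUFA8, NDUFB5 and SDHB among the siSIRT6 rises, and ATP5MC1, COX5A, NDUFA9, NDUFB9 and SDHD among the falls. In siKDM5C these were ATP5MG, ATP5PB, NDUFA8, SDHA, SDHB and UQCRC1 among the rises, and ATP5MC1, NDUFA3, NDUFA6, NDUFA7, NDUFA9, NDUFB3, NDUFB4, NDUFS1 and SDHD among the falls. NDUFA6 and NDUFA9 were not tested where the filter was raised to 5 FPKM.

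The members share features that the rule did not use. The median of their mean levels was 27.0 FPKM, beside 5.71 over all genes tested, and ran from 14.7 in complex I through 28.0 in complex III, 28.1 in complex V and 34.2 in complex II to 46.5 in complex IV. Their genes were short, with a median length behind the FPKM of 2324 bases (421 to 19359) beside 3799 over all genes, and their median GC content was 47.9% beside 49.1%. They lay on 22 chromosomes, 12 of them on chromosome 19. Of the 88, 48 shared exon bases with another annotated gene, and 3 shared at least 50% of them: NDUFC2-KCTD14, ATP5MF-PTCD1 and ATP5ME. With the readthrough genes and retrogenes left out, 9 rose and 13 fell of 80 tested in siSIRT6, and 11 rose and 12 fell in siKDM5C.

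A RefSeq promoter window was at hand for 71 of the 88 members. An NRF1 match was present in 22.5% of these, beside 8.58% of 15843 protein-coding and 6.28% of all 27305 promoters. An ETS and GABP match was present in 28.2%, beside 14.2% and 10.7%, and a YY1 match in 22.5%, beside 6.40% and 6.06%. The CCAAT letters of NF-Y, in 36.6% of member promoters, were about as common as elsewhere (36.4% and 35.7%), as were those of SP1 among protein-coding genes (60.6% beside 58.5%, and 44.6% of all).

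Transcripts of 3 of the factors named for these motifs were followed. YY1 rose from 8.68 to 11.1 and 12.0 FPKM, by 0.32 (adjusted p = 0.00276) in siSIRT6 and 0.43 (adjusted p = 0.000561) in siKDM5C. NRF1 fell in siSIRT6 at -0.17 (SE 0.06, adjusted p = 0.0408) and rose in siKDM5C at 0.23 (SE 0.06, adjusted p = 0.0103). GABPA, the DNA-binding subunit of GABP, changed by 0.08 (adjusted p = 0.252) in siSIRT6 and fell in siKDM5C at -0.15 (SE 0.05, adjusted p = 0.041). The NRF1 fall and the GABPA fall were small and close to the threshold. How the NRF1 and GABPA calls held in the alternatives is not given here. TFAM, the factor that packages and transcribes mitochondrial DNA, read 22.7, 21.9 and 19.9 FPKM in the control libraries, 11.9, 11.8 and 11.6 in the siSIRT6 libraries and 14.9, 16.8 and 12.3 in the siKDM5C libraries. It lay below the controls in all 6 knockdown libraries, at -0.81 (SE 0.10, adjusted p = 0.000248) and -0.53 (SE 0.10, adjusted p = 0.00246). Of the 11 nuclear regulators tested, 1 rose and 5 fell in siSIRT6 (54.5% called, beside 50.8% of all genes). In siKDM5C 3 rose and 2 fell (45.5% beside 51.5%), so these shares were near those of all genes. This list, like those below, was drawn up with earlier results of these data known.

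Assembly factors, which build the complexes without staying in them, were called in shares near those of all genes. Of 52 tested, 8 rose and 15 fell in siSIRT6 (44.2% beside 50.8%), and 11 rose and 17 fell in siKDM5C (53.8% beside 51.5%). Those of complex II had calls in both directions. SDHAF2, which attaches the flavin to SDHA, read 33.3, 33.3 and 35.2 FPKM in the control libraries, 21.1, 21.1 and 20.7 in the siSIRT6 libraries and 24.4, 22.1 and 21.6 in the siKDM5C libraries, and fell at -0.67 (adjusted p = 2.62e-05) and -0.56 (adjusted p = 6.63e-05). SDHAF1, which serves the iron-sulfur clusters of SDHB, read 4.88, 6.15 and 5.52 FPKM in the control libraries, 7.64, 6.86 and 8.29 in the siSIRT6 libraries and 9.92, 11.1 and 15.1 in the siKDM5C libraries, and rose at 0.40 (adjusted p = 0.0432) and 0.99 (adjusted p = 0.000563). SDHAF4, which acts on flavinated SDHA, rose at 0.37 and 0.28. The factor for flavin attachment thus fell while SDHA itself rose.

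Other assembly factors differed between the knockdowns. NDUFAF3, an early complex I factor, changed by 0.19 (adjusted p = 0.176) in siSIRT6 and fell in siKDM5C at -0.95 (adjusted p = 0.000144), with a difference of 1.14 (adjusted p = 9.41e-05). UQCC1, needed to make cytochrome b, rose at 0.50 (adjusted p = 0.000135) and 0.81 (adjusted p = 1.02e-05). C15orf48, which can replace NDUFA4 in complex IV, read 122, 123 and 121 FPKM in the control libraries, 120.3, 126 and 125 in the siSIRT6 libraries and 32.6, 27.2 and 28.9 in the siKDM5C libraries. It fell only in siKDM5C, at -2.01 (SE 0.07, adjusted p = 2.77e-07), beside 0.02 (adjusted p = 0.833) in siSIRT6, and NDUFA4 itself changed by 0.04 (adjusted p = 0.828) and 0.24 (adjusted p = 0.168).

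Of the 13 mRNAs of mitochondrial DNA, which encode the remaining subunits, 7 fell in siSIRT6 (median -0.26) and 8 fell in siKDM5C (median -0.42). The rest did not pass. That is 53.8% and 61.5% called, beside 50.8% and 51.5% of all genes tested (26.9% and 25.9% fell). MT-ND2 fell at -0.47 (adjusted p = 0.00492) and -0.83 (adjusted p = 0.000227). The 13 TCA cycle genes moved both ways, with 4 rises and 5 falls in siSIRT6 and 5 rises and 4 falls in siKDM5C. In each comparison 69.2% were called, beside the same 50.8% and 51.5% of all genes. OGDH, of the oxoglutarate dehydrogenase complex, rose by 0.74 (adjusted p = 3.78e-05) and 0.68 (adjusted p = 6.11e-05). IDH3G, a subunit of isocitrate dehydrogenase, fell at -0.50 (adjusted p = 0.000378) and -0.63 (adjusted p = 0.000101). Of the 4 carriers of ATP, ADP and phosphate, SLC25A5 rose in siKDM5C at 0.43 (adjusted p = 0.000927) and SLC25A4 fell in siSIRT6 at -0.30 (adjusted p = 0.00662).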

How the data were processed

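Total RNA of the 9 PANC-1 libraries was extracted with Trizol, per the labels' protocols. The authors deposited 1 FPKM value per gene and library. Trimmomatic, HISAT2, Cufflinks, HTSeq and build hg38 are named, per the submitters' processing notes; the sources used here do not give annotation, strand setting or each tool's role. Of the 36753 identifiers, 35564 matched GENCODE 29.

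From the deposited FPKM, log2(FPKM + 1) was fitted with limma-trend (limma 3.58.1, R 4.3.3) on all 9 libraries with group as the only term. Genes needed at least 1 FPKM in at least 3 libraries, and p-values were adjusted over all 16135. A count model had been planned only for raw counts. The FPKM steps gave back whole reads (recovered within 0.01 read). The length was the union of a gene's exons for 58.9% of genes and the smallest other whole length that fitted for 41.1%. Among the 88 members it was the union for 25 and another whole length for 63. An alternative was limma-voom on these reads. Reads are not independent molecules. The fit was tested on simulated data. Python 3.11.15, pandas 2.3.3, scipy 1.17.1 and matplotlib 3.10.9 served for the rest.

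Members, lists and motifs were chosen with earlier results of these data known. Named were all SDH genes, in each complex and comparison up to 3 largest rises and falls without overlap, the lowest and highest levels, the isoform groups, between the knockdowns the 5 largest differences in each direction, and up to 4 genes per related list; other members are given by counts, ranges or fold change alone. Some genes are not reported singly here. The alternatives were another pseudocount, other filters, another scaling, removal of the trend on GC content and length, protein-coding genes only, limma-voom, the replicate number as a block, only the groups compared, and each library left out.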

Additional observations from a re-analysis of the deposited data

How the results depend on the processing

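For single genes, 1883 recomputed values kept direction and side of the threshold, 52 gained and 111 lost a call or moved, and 48 changed sign; each gene that changed sign was past the threshold under neither setting. Depth limits NDUFA6 and ATP5IF1 most, and precision rests on 3 libraries per group.

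Summed FPKM as a percentage of control moved under median-of-ratios scaling in siSIRT6 to 91.9 for complex I, 107.2 for complex II, 92.3 for complex III and 100.8 for complex V. Without the most abundant member it was 93.6 (complex I), 90.5 (complex II) and 103.6 (complex V) in siSIRT6 and 93.6 (complex II) in siKDM5C. With at least 5 FPKM, 5367 and 5418 of all genes were called in siSIRT6 and siKDM5C, against 8194 and 8308, since fewer were tested. Fitting only the groups compared called 38 members in siSIRT6 against 23, and leaving out 1 library called 14 to 30. Between the knockdowns 18 members were called, 11 with no filter and 6 to 22 with 1 library left out. Median-of-ratios scaling turned the split between the knockdowns from 8 higher and 10 lower to 9 and 7. The ATP5MC2 share difference between the knockdowns ran from -1.36 to 2.07 points with 1 library left out.

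Sign changes in siKDM5C with the trend on GC content and length removed were ATP5MC3 0.030, NDUFB9 -0.0047, UQCRH -0.055 and ATP5F1B -0.044, and ATP5IF1 gave 0.11 with a pseudocount of 0.1 and 0.12 by limma-voom. Between the knockdowns, removing that trend gave COX6B1 0.0020, ATP5MG -0.053 and CYCS -0.042, and median-of-ratios scaling gave COX7A2 0.013 and ATP5MC3 0.0092. With 1 library left out, siSIRT6 changes ran from -0.10 to 0.032 for COX4I1, -0.29 to 0.11 for NDUFA6, -0.083 to 0.84 for ATP5IF1 and -0.12 to 0.011 for NDUFS3. In siKDM5C they ran from -0.033 to 0.14 for SDHC, -0.050 to 0.26 for COX6A1, -0.25 to 0.015 for COX6B1, -0.38 to 0.019 for COX7A2, -0.16 to 0.078 for ATP5MC3, -0.040 to 0.13 for NDUFB9, -0.11 to 0.16 for UQCRH, -0.061 to 0.16 for COX8A, -0.019 to 0.079 for ATP5F1B and -0.46 to 0.54 for ATP5IF1. Between the knockdowns they ran from -0.21 to 0.059 for COX6B1, -0.18 to 0.22 for COX7A2, -0.15 to 0.082 for ATP5MC3, -0.038 to 0.15 for NDUFA8, -0.13 to 0.17 for NDUFA2, -0.048 to 0.15 for ATP5MG, -0.12 to 0.030 for ATP5MJ, -0.092 to 0.16 for CYCS and -0.34 to 0.026 for NDUFB6. The cause was not tested.

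The replicate numbers did not pair the libraries: deviations of same-numbered libraries correlated from -0.229 to 0.252, with 1 of 9 pairs over 0.1. With the replicate block, 22 members were called in siSIRT6 (9 rose, 13 fell), 25 in siKDM5C (10 rose, 15 fell) and 19 between the knockdowns (8 higher, 11 lower).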
